A study of Homo sapiens with 4 samples.

Results

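The genes described here encode structural proteins of the extracellular matrix: collagens, laminins, thrombospondins, matrix proteoglycans and the matrix glycoproteins fibronectin, fibrillin, fibulin, nidogen, osteopontin, SPARC, tenascin C and TGFBI. They were chosen by gene symbol from the probe sets of the array that carry exactly 1 gene symbol. This gave 76 of 19775 named genes, read by 202 of 54675 probe sets. The cells were Huh7, an established line of human hepatocellular carcinoma. Flow cytometry separated them into CD133+ cells, which carry the surface protein encoded by PROM1, and CD133- cells, which do not. Both populations came from the same line, and the labels give no treatment, transgene or time for either. Total RNA was hybridised to 1 array per population, and each array was summarized both by RMA (log2 values) and by MAS5 (signal intensity on a linear scale).

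The extracellular matrix is built from modules. Fibrillar collagens form banded fibres, and fibril-associated collagens and small leucine-rich proteoglycans such as lumican and fibromodulin coat those fibres and set their spacing and diameter. Laminin trimers of an alpha, a beta and a gamma chain, with type IV collagen, nidogen, perlecan and agrin, form the basement membrane on which epithelial cells sit. In liver, fibrillar collagen and its companions are produced mainly by stellate cells and fibroblasts, while hepatocytes secrete plasma fibronectin. CD133 serves in liver cancer as a marker of cells with tumour-initiating capacity, and the comparison asks how the matrix genes differ between cells with and without it.

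Every value below is an RMA value on the log2 scale unless MAS5 is named, and every difference is the CD133+ value less the CD133- value. Neither array was repeated, which leaves no replicate error, no test between the populations and no p-value, and each difference describes these arrays only. Probe sets of 1 gene that lay above the floor in both populations differed from each other with an SD of 0.15 (5728 genes), and with an SD of 0.21 over the 20 matrix genes that had such probe sets. This spread is one between probe sets on the same arrays and leaves out the variation between sorts and cultures. A gene was called above the floor when the brighter of its values exceeded 4.86, which is the median of such brighter values on the whole array. When the dimmer value lay below the floor, the fold is given as a lower bound against the floor. Counts at 2-fold use the measured difference, which must be 1 or more on the log2 scale in either direction, and the counts with dimmer values raised to the floor are given beside them. A gene with several probe sets is represented by the one of highest mean value, and others above the floor are given for most genes. In bulk RNA of a sorted population, fewer cells expressing a gene and less RNA per cell cannot be told apart.

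The sort marker PROM1 had values of 10.49 and 5.33, in the direction of the labels. All 8 hepatocyte-like marker genes measured, ALB, AFP, APOA1, APOB, TTR, SERPINA1, TF and FGB, lay above the floor on both arrays, with differences between -0.25 (APOB) and 0.55 (TTR). Of 10 fibroblast and stellate cell markers 5 lay above the floor and none was at least 2-fold different. ACTA2, THY1, LRAT, FAP and PDPN lay below the floor in both populations, and PDGFRA was 6.83 in CD133+ and 7.53 in CD133- cells. The summed linear RMA value of that marker list was 372 in CD133+ and 460 in CD133- cells. The part of these cells in the matrix differences was not tested. Of 7 endothelial markers 2 lay above the floor, PECAM1 (5.87 and 5.64) and VWF (4.89 and 4.87), and the list summed to 139 and 131. Of 6 blood cell markers 5 lay above it, including lysozyme (LYZ, 11.11 on both arrays), with PTPRC below the floor. The list summed to 2446 and 2460, most of it from LYZ, as CD14, CD3E, HBB and CD79A read between 5.11 and 6.74.

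Of the 76 matrix genes 43 lay above the floor, and 8 of these (18.6%) had a measured difference of 2-fold or more towards CD133+ cells. The same was true of 213 of all 12899 genes above the floor (1.65%). The 8 genes were LUM, COL14A1, COL2A1, FBN1, FMOD, VCAN, COL1A2 and THBS1. Of the 43, 38 lay above the floor in both populations, 5 in CD133+ cells only and 0 in CD133- cells only. LUM, COL14A1, FBN1 and THBS1 were among those 5, so they entered the count through the population where they were high. COL2A1, FMOD, VCAN and COL1A2 lay above the floor in both. Of all 12899 genes above the floor, 12392 lay above it in both populations. The share at 2-fold among those 12392 was not counted. For FBN1 and THBS1 the lower bounds were 1.57-fold and 1.51-fold. With dimmer values raised to the floor, the other 6 of the 43, LUM and COL14A1 included, were at least 2-fold higher, against 171 of all genes (1.33%). Only THBS4 was at least 2-fold lower, with both values above the floor (2.33% of the 43, against 0.116% of all genes, which are 15 genes). MAS5, which summarizes the same arrays, also placed all 9 of these at 2-fold or more in the same direction. It did so for 195 of the 213 genes of any kind at least 2-fold higher by RMA, and for 10 of the 15 lower. These are 1.51% and 0.0775% of all genes above the floor. Such agreement was thus usual for genes at 2-fold by RMA. The remaining 34 genes above the floor were less than 2-fold different, and 24 of them differed by less than 0.3. The median difference over the 43 was 0.10, against -0.01 over all genes above the floor, and 29 of the 43 were higher (67.4%, against 45.6% of all genes) and 13 lower (30.2%, against 51.1%). The median was thus small. The excess at 2-fold lay in a minority of the 43, while the share of genes higher by any amount also exceeded that of all genes.

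**Figure D1:**
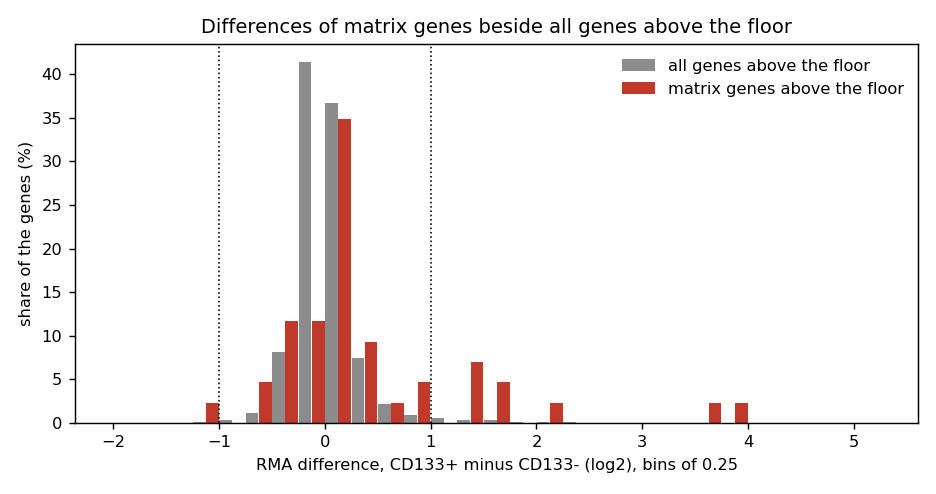
Share of genes (%) per bin of 0.25 in the RMA difference CD133+ minus CD133- (log2), for the 43 matrix genes above the floor (red) and all 12899 genes above the floor (grey). Dotted lines mark 2-fold. Red bars to the right of the line at 1 hold the 8 higher matrix genes, and the bar below -1 holds THBS4.

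For 5 of the 9 genes at 2-fold, RefSeq (GRCh38.p14) gave a promoter sequence here. The 250 bases before each annotated start are shown because VCAN, FMOD, FBN1 and THBS1 were higher together while THBS4 was the lower one. THBS4 has 2 annotated starts. Capitals mark matches, on either strand, to the TATA box letters TATAAA, the CCAAT box letters CCAAT, the GC box letters GGGCGG and the AP-1 site letters TGANTCA.
VCAN, chr5:83471494-83471743 (+ strand): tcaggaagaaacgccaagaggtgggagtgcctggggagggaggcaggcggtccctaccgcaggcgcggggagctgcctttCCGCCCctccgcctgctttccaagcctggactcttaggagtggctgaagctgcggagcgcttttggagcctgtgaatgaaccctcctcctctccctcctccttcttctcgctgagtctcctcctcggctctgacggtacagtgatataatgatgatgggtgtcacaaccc
FMOD, chr1:203351123-203351372 (- strand): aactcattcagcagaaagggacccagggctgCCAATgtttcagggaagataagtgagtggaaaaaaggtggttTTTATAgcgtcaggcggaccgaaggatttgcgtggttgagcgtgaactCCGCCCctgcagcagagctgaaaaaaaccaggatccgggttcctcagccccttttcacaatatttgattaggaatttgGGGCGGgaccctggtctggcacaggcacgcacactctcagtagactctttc
FBN1, chr15:48644971-48645220 (- strand): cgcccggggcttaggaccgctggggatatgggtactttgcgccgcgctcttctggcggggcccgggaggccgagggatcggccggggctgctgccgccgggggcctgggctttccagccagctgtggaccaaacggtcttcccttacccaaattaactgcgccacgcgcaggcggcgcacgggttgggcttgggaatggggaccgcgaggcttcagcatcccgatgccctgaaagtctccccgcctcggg
THBS1, chr15:39580829-39581078 (+ strand): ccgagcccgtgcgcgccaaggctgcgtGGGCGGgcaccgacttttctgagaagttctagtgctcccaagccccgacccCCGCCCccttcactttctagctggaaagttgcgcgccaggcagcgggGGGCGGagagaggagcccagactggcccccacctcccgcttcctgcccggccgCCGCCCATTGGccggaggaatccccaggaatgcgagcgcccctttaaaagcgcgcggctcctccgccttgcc
THBS4, first start, chr5:79991082-79991331 (+ strand): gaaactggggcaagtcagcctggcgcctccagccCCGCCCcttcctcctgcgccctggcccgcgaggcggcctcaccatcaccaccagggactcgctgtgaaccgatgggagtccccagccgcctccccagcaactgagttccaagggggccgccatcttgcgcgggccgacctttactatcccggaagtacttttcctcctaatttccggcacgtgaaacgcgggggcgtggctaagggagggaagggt
THBS4, second start, chr5:80035773-80036022 (+ strand): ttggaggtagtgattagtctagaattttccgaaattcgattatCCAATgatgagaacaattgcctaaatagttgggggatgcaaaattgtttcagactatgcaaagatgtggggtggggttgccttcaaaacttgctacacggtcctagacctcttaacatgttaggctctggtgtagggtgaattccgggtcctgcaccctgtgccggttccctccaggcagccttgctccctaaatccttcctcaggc

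THBS1 held 4 GC box matches and 1 CCAAT match, which adjoins the match nearest the start. FMOD held 2 GC box matches, 1 CCAAT match and 1 TATAAA match, the last beginning 177 bases before the start. VCAN and the first THBS4 window each held 1 GC box match, the second THBS4 window held 1 CCAAT match, and FBN1 held none of the 4 motifs. No window held TGANTCA. Over all 35116 promoter windows of this length, 42.6% held a GC box match, 32.0% a CCAAT match, 10.7% a TATAAA match and 6.57% a TGANTCA match. Over the 77 windows of the 59 matrix genes found in the table, the shares were 62.3%, 29.9%, 15.6% and 2.60%. A match describes these letters only.

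Among fibrillar collagens, COL2A1 and COL1A2 were higher in CD133+ cells and the rest differed little or were lower. COL2A1 encodes the chain of type II collagen, the homotrimer known as the main fibre of cartilage. Its value was 12.64 in CD133+ and 10.58 in CD133- cells, a 4.19-fold difference. The second COL2A1 probe set read 11.63 and 9.15, a 5.57-fold difference, so both probe sets were more than 2-fold higher on these arrays. The MAS5 signals of the first were 25776 and 6656, 3.87-fold apart. Of the 12392 genes above the floor in both populations, COL2A1 had the 24th largest positive difference.

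COL1A2 and COL1A1 encode the chains of type I collagen, which is usually a trimer of both. COL1A2 read 8.48 in CD133+ and 7.15 in CD133- cells, 2.51-fold higher, and its second probe set read 8.35 and 7.04, 2.48-fold higher. Its last probe set lay below the floor, at 4.63 on both arrays. COL1A1 was different: its representative probe set read 7.68 and 7.64, a difference of 0.04. That probe set is of the type marked _x_at, which can take up other transcripts, and the other 4 COL1A1 probe sets all lay below the floor on both arrays, with differences from -0.02 to 0.53. The MAS5 signals of the COL1A1 representative were 497 and 481. Thus on these arrays COL1A2 was above the floor on 2 probe sets, both marked _s_at, and COL1A1 on a single one marked _x_at. Both marks name sets shared between transcripts. The only COL1A2 probe set without such a mark was the one below the floor.

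The other fibrillar collagens above the floor included COL5A2, a type V chain that nucleates type I fibres, with 10.58 and 10.43, and its second probe set differed by 0.20. COL11A1, a type XI chain of cartilage fibres, was lower by 0.64 (5.67 and 6.31), and its other probe set above the floor was lower by 0.60. COL11A2 read 5.45 and 5.52, with 0.13 on its second probe set. COL27A1, another cartilage fibre collagen, read 7.83 and 8.34, and its 3 probe sets above the floor were lower by 0.52, 0.26 and 0.28. Cartilage collagens therefore went both ways, with COL2A1 higher and COL11A1 and COL27A1 lower by less than 2-fold. COL3A1, COL5A1, COL5A3 and COL24A1 lay below the floor in both populations.

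Of the fibril-associated collagens, which bind to the surface of fibres, only COL14A1 reached 2-fold. COL14A1, the type XIV collagen chain, read 7.30 in CD133+ and 3.69 in CD133- cells, at least 5.42-fold higher. A second probe set read 6.92 and 3.29, at least 4.18-fold higher. The first was at 804 and 69.6 by MAS5, and the second at 838 and 42.9. The other COL14A1 probe sets lay below the floor in both populations, at 3.61 against 3.70 and at 2.35 against 2.09. So COL14A1 was above the floor in CD133+ cells only, on 2 of its 4 probe sets.

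The other 5 fibril-associated collagens above the floor differed by at most 0.26. COL9A2, a chain of the type IX collagen that decorates type II fibres, read 7.55 and 7.29. COL9A1, another type IX chain, read 5.28 and 5.49, and its MAS5 signals lay below the MAS5 floor of 91.8. COL12A1 read 5.02 and 4.82 by RMA and 161 against 74.7 by MAS5, at least 1.75-fold higher against the MAS5 floor. COL22A1 and COL20A1 differed by 0.05 and 0.03. COL9A3, COL16A1, COL19A1 and COL21A1 lay below the floor.

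No basement membrane collagen was at least 2-fold different. The main type IV chains COL4A1 and COL4A2 lay below the floor in both populations, as did COL4A3, COL4A4, COL4A6 and COL15A1. COL4A5 read 6.68 and 6.56. COL18A1, the type XVIII chain whose C-terminal fragment is endostatin, read 7.31 and 7.54, and its second probe set was lower by 0.38. Of the 14 other collagens 5 lay above the floor, and all 5 were less than 2-fold different by RMA. COL26A1 read 7.33 and 7.72, with 0.14 on its second probe set, and COL6A1, a beaded filament chain, 5.59 and 5.86. COL6A2, the partner of COL6A1, read 5.11 and 5.03, and COL13A1, a transmembrane collagen, was at 5.82 on both arrays. COL7A1, the anchoring fibril collagen, differed by 0.03 by RMA but was at 49.6 and 100.2 by MAS5, the opposite direction and at least 1.09-fold lower against the MAS5 floor. COL6A3, COL6A5, COL6A6, COL8A1, COL8A2, COL10A1, COL23A1, COL25A1 and COL28A1 lay below the floor.

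In all, 3 of 20 collagens above the floor were at least 2-fold higher, against 1.65% of all genes above the floor, and none was at least 2-fold lower, against 0.116%. Their median difference was 0.03, against -0.01 over all genes. The collagens at 2-fold thus came from 2 roles, fibrillar (COL2A1 and COL1A2) and fibril-associated (COL14A1).

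**Figure D2:**
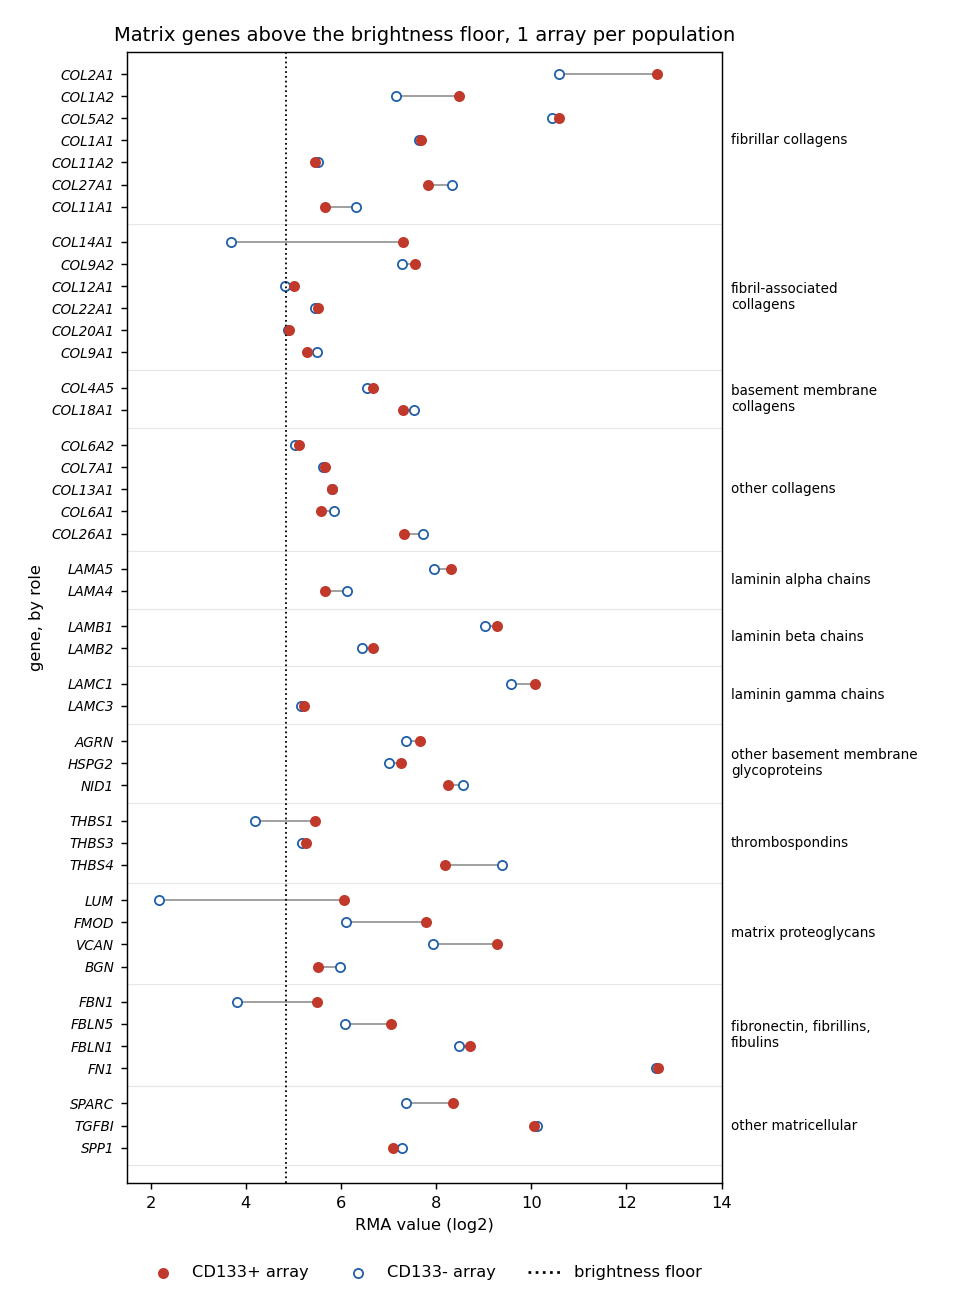
RMA values (log2) of the 43 matrix genes above the floor on the CD133+ array (filled red) and the CD133- array (open blue), 1 array per population, ordered by role and by difference. The dotted line is the floor of 4.86; LUM, COL14A1, FBN1, THBS1 and COL12A1 cross it, each above it in CD133+ cells only.

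Laminin chains, the trimer subunits of the basement membrane, were all less than 2-fold different. Of the 6 above the floor 5 were higher in CD133+ cells, against 45.6% of all genes above the floor. LAMC1, the gamma chain shared by most laminins, read 10.09 in CD133+ and 9.58 in CD133- cells, 1.42-fold higher, and its second probe set was higher by 0.44. LAMA5, the alpha chain of epithelial laminins, read 8.32 and 7.97. LAMB1, the beta chain of the same trimer, read 9.27 and 9.02, with 0.21 on its second probe set, and LAMB2, an alternative beta chain, read 6.67 and 6.45. The chains that form laminin with LAMA5, LAMB1 and LAMC1 thus differed in the same direction, by 0.36, 0.25 and 0.50.

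LAMA4, an alpha chain typical of vessel and muscle basement membranes, was lower by 0.48 (5.66 and 6.14), while the remaining sets that passed the floor gave 0.00 and -0.05. LAMC3, near the floor with 5.22 and 5.16, differed by 0.06 by RMA, and its other probe set, below the floor, by -0.07. It was at 117 and 53.8 by MAS5, at least 1.28-fold higher against the MAS5 floor. LAMA1, LAMA2, LAMB3 and LAMB4 lay below the floor. The median difference over the 6 laminins above it was 0.23, against -0.01 over all genes above the floor.

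The other basement membrane components went both ways and stayed under 2-fold. AGRN (agrin) and HSPG2 (perlecan), both heparan sulfate proteoglycans, read 7.67 against 7.37 and 7.26 against 7.01. Their other probe sets above the floor did not all follow, with 0.34, 0.00 and -0.24 for AGRN and -0.19 for HSPG2. NID1, the nidogen that links laminin to type IV collagen, read 8.24 and 8.56, and its other probe sets were lower by 0.12 and 0.04. NID2 lay below the floor, with 4.48 and 3.97.

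Thrombospondins differed in opposite directions. THBS1, a matricellular protein that activates latent TGF-beta and inhibits vessel growth, read 5.45 in CD133+ and 4.20 in CD133- cells, at least 1.51-fold higher. Its second probe set above the floor read 5.23 and 3.84, at least 1.29-fold higher, and the 5 probe sets below the floor were also higher, by 0.07 to 0.99. The first was at 267 and 105 by MAS5, a 2.54-fold difference. All 7 THBS1 differences were thus above 0 by RMA, but 5 of them come from probe sets below the floor on both arrays, and by MAS5 one of those was lower (21.5 and 55.0).

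THBS4, a pentameric thrombospondin of tendon and muscle matrix, read 8.20 in CD133+ and 9.40 in CD133- cells, 2.29-fold lower, with MAS5 signals of 1065 and 2539. It has a single probe set on this array. Its negative difference was the fifth largest among the 12392 genes above the floor in both populations. THBS3, also pentameric, differed by 0.10 by RMA but was at 33.6 and 122 by MAS5, the opposite direction and at least 1.33-fold lower against the MAS5 floor. THBS2 lay below the floor.

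Of the small leucine-rich proteoglycans and versican, 3 of the 4 above the floor were at least 2-fold higher, against 1.65% of all genes above the floor. Of these 3, LUM passed the floor in CD133+ cells only. Of other proteoglycans, AGRN and HSPG2 differed by 0.30 and 0.25, and 0 of 12 outside the chosen genes reached 2-fold. At the share of 1.65%, a list of 12 can easily hold none, and of those 12 genes 9 were higher and 3 lower. VCAN encodes versican, a large chondroitin sulfate proteoglycan that binds hyaluronan. It read 9.29 in CD133+ and 7.95 in CD133- cells, 2.54-fold higher. The other 4 VCAN probe sets were higher by 1.33, 1.11, 1.38 and 1.40, so that all 5 exceeded 2-fold. By MAS5 the representative was at 3206 and 1168. No other matrix gene had as many probe sets at 2-fold. All 5 are marked _s_at or _x_at, the kinds shared between transcripts, and they read the same arrays.

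FMOD encodes fibromodulin, a small leucine-rich proteoglycan that binds type I collagen fibres. It read 7.79 and 6.11, 3.22-fold higher, with MAS5 signals of 1022 and 369, on its single probe set. LUM encodes lumican, the closely related fibre-spacing proteoglycan. It read 6.08 in CD133+ and 2.17 in CD133- cells, at least 2.33-fold higher, and 499 against 13.5 by MAS5. The other LUM probe set was below the floor, at 2.98 and 2.87, so the LUM difference rests on 1 probe set.

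The remaining small leucine-rich proteoglycans did not share this. BGN (biglycan) was lower by 0.47 (5.52 and 5.98) by RMA but at 160 and 165 by MAS5. Its other probe sets differed by 0.07 and -0.47. DCN (decorin) and OGN (osteoglycin) lay below the floor on all probe sets in both populations.

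The elastic fibre genes FBN1 and FBLN5 were higher, while fibronectin hardly differed. FBN1 encodes fibrillin-1, the backbone of microfibrils. It read 5.51 in CD133+ and 3.82 in CD133- cells, at least 1.57-fold higher, and 293 against 89.4 by MAS5. Its other probe sets, both below the floor, were higher by 0.82 and 0.08. FBLN5, the fibulin that tethers elastin to microfibrils, was just under 2-fold, at 7.05 and 6.08 (1.96-fold), and by MAS5 it was 1.35-fold higher (479 and 354). FBLN1 read 8.71 and 8.48, with the other probe sets above the floor at -0.01 and -0.08. FBN2 lay below the floor.

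FN1 (fibronectin), a main hepatocyte-secreted adhesion protein, read 12.66 in CD133+ and 12.63 in CD133- cells. The next 3 FN1 probe sets read between 12.06 and 12.67 and differed by 0.02 to 0.07. Of the dim FN1 probe sets, one at 4.93 and 5.51 was lower by 0.58, with MAS5 signals of 124 and 236. Fibronectin was thus close to equal in both populations on 4 of its 7 probe sets, each reading above 12.

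SPARC, a matricellular collagen-binding protein, sat at the limit. Its representative probe set read 8.36 and 7.38, 1.97-fold higher, and its second read 6.10 and 4.79, at least 2.37-fold higher. By MAS5 the representative was at 1363 and 578, 2.36-fold higher. TGFBI, an adhesion protein induced by TGF-beta, read 10.06 and 10.12, and SPP1 (osteopontin) 7.09 and 7.28. TNC (tenascin C) lay below the floor. SPARC and FBLN5 were thus the members nearest to 2-fold among those not counted, and THBS1 (1.26) and COL1A2 (1.33) were the nearest among the 8 counted as higher.

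**Figure D3:**
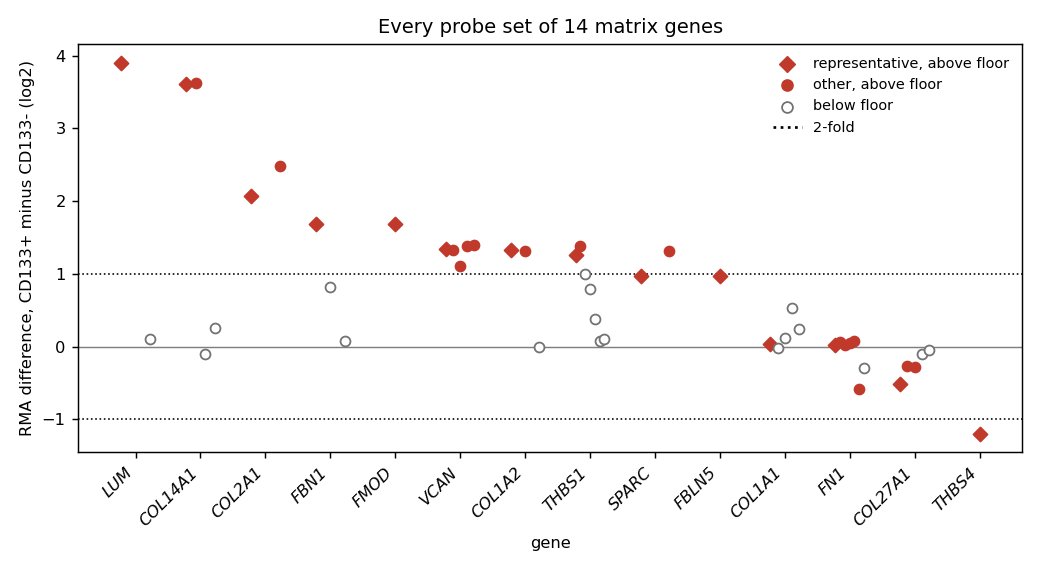
RMA difference CD133+ minus CD133- (log2) of every probe set of 14 matrix genes: the 9 at 2-fold, the near-limit genes SPARC and FBLN5, and COL1A1, FN1 and COL27A1 for comparison. Filled points lie above the floor, diamonds are the representative probe sets, open points lie below the floor in both populations, and dotted lines mark 2-fold. The 5 VCAN and 2 COL2A1 probe sets all lie above the upper line, while LUM, COL14A1 and COL1A2 have open points near 0.

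Taken by probe set in place of gene, 83 of the 202 matrix probe sets lay above the floor. Of these, 17 (20.5%) had a measured difference of 2-fold or more towards CD133+ cells, against 328 of 27337 probe sets of any kind above the floor (1.20%). With dimmer values raised to the floor these were 14 (16.9%) against 256 (0.936%), the 3 that dropped out being 1 of FBN1 and 2 of THBS1. The only one at least 2-fold lower was that of THBS4 (1.20%, against 0.0805%, or 0.0768% with values raised to the floor). None of the 119 matrix probe sets below the floor reached 2-fold, the highest being a THBS1 probe set at 0.99 and the lowest one of LAMA1 at -0.53. The 33 genes below the floor therefore gave no further difference of that size.

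The 9 differences at 2-fold by RMA had the same direction by MAS5, while some genes that differed little by RMA stood apart by MAS5. Of the 41 matrix genes above both floors, 35 had the same direction by RMA and MAS5 and 5 the opposite one, namely COL11A2, COL20A1, COL4A5, COL7A1 and THBS3. The same shares over all genes were not counted, so whether this is usual cannot be said. The MAS5 floor was also passed by 43 matrix genes, not all the same ones. Of these, 11 (25.6%) had a measured MAS5 difference of 2-fold or more towards CD133+ cells, against 4.47% of all genes above the MAS5 floor, which adds SPARC, COL12A1 and LAMC3 to the 8. Towards CD133- cells there were 3 (6.98%, against 1.71%), namely THBS4, COL7A1 and THBS3. With dimmer signals raised to the MAS5 floor, 9 were at least 2-fold higher (20.9%, against 2.55%), namely SPARC and the 8, and only THBS4 was at least 2-fold lower (2.33%, against 0.400%). LUM, whose CD133- values lay below both floors, was at least 2.33-fold higher by RMA and at least 5.44-fold higher by MAS5. These come from the same arrays, so their agreement is not independent.

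**Figure D4:**
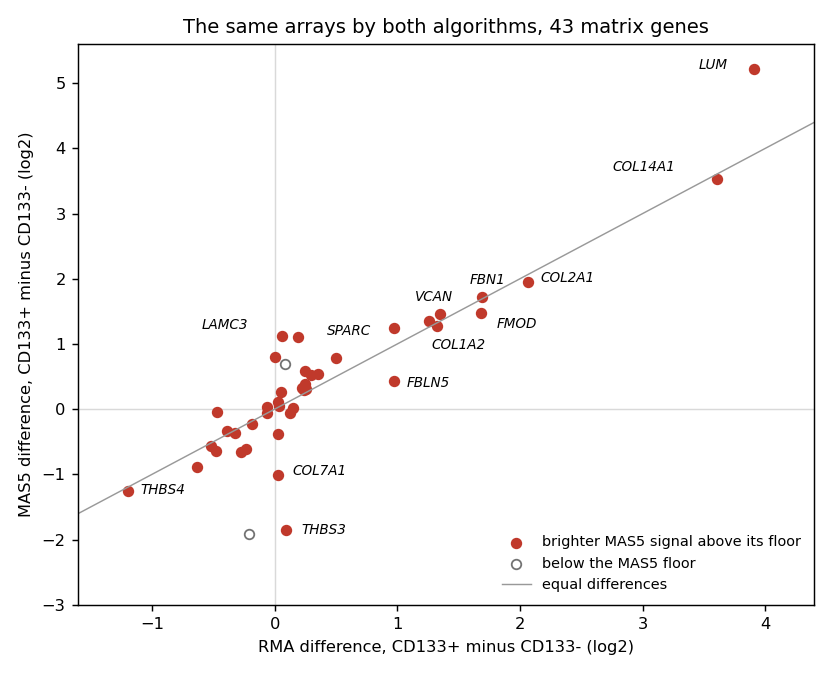
Difference CD133+ minus CD133- (log2) of the 43 matrix genes above the RMA floor, by RMA (horizontal) and by MAS5 (vertical), with the line of equal differences. Open points lie below the MAS5 floor. The 9 genes at 2-fold lie near the line or, for LUM, above it, whereas THBS3 and COL7A1 sit near 0 by RMA and below -1 by MAS5.

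No gene above the floor in the lists for folding, processing and crosslinking collagen reached 2-fold. Over all genes above the floor, 1.65% were at least 2-fold higher and 0.116% lower. At these shares, lists of 19 and 9 genes can easily hold none. Of all genes above the floor 45.6% were higher and 51.1% lower. Of 19 genes above the floor for collagen folding, modification and secretion, 10 were higher and 9 lower, with a median of 0.04. P4HA2, a prolyl hydroxylase subunit, was highest with 0.54 (8.47 and 7.93), and MIA3, a collagen export receptor, lowest with -0.23. Of 9 genes above the floor for procollagen processing and crosslinking, 7 were higher and 2 lower, with a median of 0.07. LOXL1, a lysyl oxidase of elastic fibres, was highest with 0.69 (5.57 and 4.89), and LOX, the founding lysyl oxidase, read 8.89 and 8.31. PCOLCE2, an enhancer of procollagen cleavage, was lowest with -0.60 (8.57 and 9.17).

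Among receptors for collagen, laminin and thrombospondin, 1 of 18 above the floor was at least 2-fold higher, against 1.65% of all genes above the floor. This was CD47, the thrombospondin receptor and "don't eat me" signal, at 7.73 and 6.66. The median of this list was -0.02, and ITGA1, a collagen-binding integrin chain, was lowest at -0.60.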

How the data were processed

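Expression was measured in CD133+ and CD133- Huh7 cells on 1 array each. The deposited table holds 4 columns, each population once as MAS5 and once as RMA; these are taken as the same array summarized by 2 algorithms, since the sample titles match in all but the algorithm, and never as replicates. Per the labels and the deposited values, the MAS5 columns hold signal intensity on a linear scale (medians 77.1 and 77.0; the mean without the top and bottom 2% was 500.1 on each array, so a common scaling had been applied). The submitters' processing notes name MAS5 and GCOS. Per the labels and the deposited values, the RMA columns hold log2 values (medians 4.77 and 4.76). The RMA software is not given in the sources used here. RMA equalizes the distributions of arrays normalized together, so a global shift between populations could not be seen.

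The platform annotation gave 41097 probe sets 1 symbol, 1801 several and 11777 none; 41043 were matched to GRCh38.p14 symbols by gene number. Those without exactly 1 symbol were not used to name genes. Differences were computed in Python 3.11.15 with pandas 2.3.3 and tested on simulated data with known differences. The brightness floors were 4.86 (RMA) and 91.8 (MAS5), the medians of the brighter value over probe sets; they are not detection calls. The threshold was 2-fold. No test between populations is possible with 1 array each, and the number of arrays limits precision.

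The rule for the members reads gene symbols only, but the members, lists, floor and threshold were chosen with earlier results of these data known. By rule the text names members at least 2-fold different on a probe set above the floor, the extremes and the highest mean of each role, and members whose MAS5 direction opposed RMA at 2-fold. For the other lists it names genes at 2-fold or the extremes. Other genes were named for their role after their values were seen. Alternatives were MAS5, MAS5 with 50 added, no floor, a floor at the 75th percentile, the mean over probe sets, no _s_at or _x_at probe sets (names that mark sets shared between transcripts), centring, both algorithms together and 1.5-fold. Raising the dimmer value to the floor, by RMA and by MAS5, was an alternative chosen after seeing the data.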

Additional observations from a re-analysis of the deposited data

How the results depend on the processing

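The count of 8 matrix genes at least 2-fold higher was 11 by MAS5, 9 with 50 added to MAS5, 10 at 1.5-fold, 6 with the dimmer value raised to the floor and 9 by MAS5 with its dimmer signal raised to the floor, 2 alternatives chosen after seeing the data, and stayed at 8 without a floor, after centring and when both algorithms were required. It was 5 with the floor at the 75th percentile (24 genes left), 5 with the mean over probe sets (29 genes left) and 4 without _s_at and _x_at probe sets (25 genes left), where COL1A2 kept only a dim probe set with a difference of 0.00. The count of 1 gene at least 2-fold lower was 3 by MAS5, 2 with 50 added and 2 at 1.5-fold, and 1 in the other alternatives run. The median difference of 0.10 was 0.26 by MAS5, with and without signals raised to the floor, and 0.25 with the higher floor, and between 0.08 and 0.20 in the other alternatives. All 9 genes at 2-fold kept their direction and stayed at 2-fold or more by MAS5, with 50 added and after centring. Of these 9 differences, 7 moved by less than the spread of 0.15 by MAS5, 4 with 50 added and 9 after centring. With the mean over probe sets all 9 kept the direction and 6 stayed at 2-fold. Without the shared probe sets 8 of them had a probe set, VCAN being the one that had none. Of these 8, 7 kept the direction and 4 stayed at 2-fold. No difference at 2-fold changed sign in any alternative run. No paired analysis was possible because each population has 1 array. Dim genes limit what can be said: 33 of the 76 genes lay below the floor.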

Other observations

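Matrix genes beyond those described showed a few further differences, listed as values. Of 19 other matrix glycoproteins above the floor, EFEMP1, a fibulin family member also called fibulin-3, was at least 2-fold higher in CD133+ cells, at 9.07 and 7.98 (MAS5 2440 and 1094), against 1.65% of all genes above the floor at that size, and the median was 0.04. LTBP1, which holds latent TGF-beta in the matrix, read 6.73 and 5.91, and EFEMP2, fibulin-4, read 6.85 and 6.22, although by MAS5 it was 367 and 366. SPARCL1, related to SPARC, was lowest, at 4.46 and 4.97. POSTN and COMP lay below the floor. LTBP1, EFEMP2, POSTN and COMP were chosen after their values were seen.

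Of 12 other proteoglycans above the floor none was at least 2-fold different, and the median was 0.10. At that size 1.65% of all genes above the floor were higher and 0.116% lower, so a list of 12 can easily hold none. Of the 12 proteoglycans 9 were higher and 3 lower, against 45.6% and 51.1% of all genes above the floor. ECM2, a small leucine-rich protein of the matrix, was highest, at 6.89 and 6.08, and NCAN, neurocan, lowest, at 5.11 and 5.32. GPC3, the cell-surface glypican used as a liver cancer marker, read 12.01 and 11.84. The fibre-coating genes KERA, ASPN, EPYC and OMD lay below the floor.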
